A study of Mus musculus with 6 samples.

Results

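The MYC, MAX and MXD network was examined as 9 genes, Myc, Mycn, Max, Mxd1, Mxd3, Mxd4, Mxi1, Mnt and Mlx, taken by gene symbol from a table of 23337 genes. All 9 were present and passed the filter on low values, at 10 or more normalized counts on average across the 6 libraries, which left 13671 genes for testing. The RNA was that of basal cell carcinoma cells from the ear epidermis of mice, collected 6 weeks after tamoxifen that was given at an age of 4 weeks. The 3 knockout libraries came from R26-SmoM2/+ Yapfl/fl K14CreER mice and the 3 wild-type libraries from R26-SmoM2/+ K14CreER mice, so the groups shared SmoM2, an active form of the Hedgehog transducer Smoothened, and the tamoxifen-dependent Cre, and differed by the floxed Yap alleles. The Krt14 promoter restricts this Cre to keratinocytes of the basal layer and their descendants, and cells without recombination keep Yap1. Whether 1 animal or a pool stands behind each library is not given in the labels, and p-values therefore refer to the spread among these libraries. Part of this spread may be technical, but Xist and Ddx3y, given below, set library 3 of each group apart in sex from libraries 1 and 2. In such bulk samples, fewer cells of a type and less RNA per cell cannot be told apart.

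Proteins of the network bind DNA in pairs through a shared basic helix-loop-helix leucine zipper, at sites called E-boxes. MAX is the common partner. With MYC or MYCN it activates genes for growth, ribosome production and cell division, and with the MXD proteins, MXI1 or MNT it recruits SIN3 corepressors to the same kind of site. MLX is a second hub that pairs with some MXD proteins, with MNT and with the glucose-responsive MondoA and ChREBP. In skin, Myc acts in proliferating basal and progenitor keratinocytes, Mxd genes are known for their expression in differentiating ones, and Mycn is a transcriptional target of Hedgehog signalling. Myc has been reported as a target of YAP, the co-activator that the Hippo kinases restrain.

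The promoters of the members are shown first where they hold a motif that was searched for or belong to a member that the comparison turns on. Mycn and Mxd3 are given in full, from 250 bases before to 50 bases after the RefSeq transcription start (GRCm38.p6). Capitals mark matches to the searched letters: CACGTG, the canonical E-box, and TTTGGCGC or TTTCCCGC, forms of the E2F site, on both strands. GACCACCCA, the GLI consensus, and CATTCC, the core bound by TEAD factors, were searched in the same way.

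Mycn promoter, chr12:12941787-12942086, minus strand: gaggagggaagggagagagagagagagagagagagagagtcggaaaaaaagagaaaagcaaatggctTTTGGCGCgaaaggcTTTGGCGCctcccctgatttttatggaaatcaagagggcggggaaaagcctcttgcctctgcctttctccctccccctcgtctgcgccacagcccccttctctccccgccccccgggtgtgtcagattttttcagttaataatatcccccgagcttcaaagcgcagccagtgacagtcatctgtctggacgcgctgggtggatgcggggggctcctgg
Mxd3 promoter, chr13:55329682-55329981, minus strand: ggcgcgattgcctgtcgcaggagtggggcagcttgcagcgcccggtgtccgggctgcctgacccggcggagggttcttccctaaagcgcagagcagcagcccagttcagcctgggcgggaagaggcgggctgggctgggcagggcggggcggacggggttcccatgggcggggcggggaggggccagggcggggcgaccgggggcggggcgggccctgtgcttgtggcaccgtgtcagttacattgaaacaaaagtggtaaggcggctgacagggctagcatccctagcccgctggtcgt
Max promoter window, chr12:76962219-76962278, minus strand: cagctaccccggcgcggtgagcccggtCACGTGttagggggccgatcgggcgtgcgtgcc
Mlx promoter window, chr11:101087223-101087282, plus strand: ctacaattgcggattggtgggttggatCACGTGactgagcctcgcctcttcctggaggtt
Mnt promoter window, chr11:74830774-74830833, plus strand: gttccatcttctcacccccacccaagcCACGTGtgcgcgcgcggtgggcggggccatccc
Mxd4 promoter window, chr5:34187897-34187956, minus strand: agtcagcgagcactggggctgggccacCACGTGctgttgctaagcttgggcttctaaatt

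The Mycn window held TTTGGCGC at -183 and -168 from the start, where positions are those of the first base of the match. E2F letters were found in 1.56% of the 32851 promoter windows of the RefSeq table. Single E-boxes lay at -3 in Max, -40 in Mlx, -123 in Mnt and -219 in Mxd4, and 7.15% of all windows held an E-box. None of the 10 windows of the 8 members with an entry held the GLI or the TEAD letters, which stood in 0.25% and 14.66% of all windows. Myc had no promoter entry, so its promoter was not searched for any of these letters. The Mxd3 window held no match to the letters searched. A match describes these letters in this window, and no binding was measured.

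The knockout libraries held 15572640 to 25179110 reads and the wild-type libraries 15405490 to 25260431. Library 3 of each group carried a label code beginning with DM24 and libraries 1 and 2 a code beginning with DM22. The DM24 libraries were the shallowest pair, had high Xist (58654 and 59594 normalized counts in knockout and wild type, against 8.62 to 15.1 in the DM22 libraries) and had no reads of Ddx3y (3202 to 3426 in DM22), so code, depth and sex cannot be told apart. Yap1 had 591, 773 and 1764 normalized counts in knockout libraries 1 to 3 against 5765, 6004 and 5573 in wild type, with the most residual Yap1 in knockout library 3. It passed DESeq2 (adjusted p = 1.4e-07) and not limma (0.517). The 7 keratinocyte markers, led by Krt5, summed to 545004 to 567227 normalized counts in knockout and 485491 to 695051 in wild type. Summed fibroblast markers (7 genes) ran from 1615 to 7188 in knockout and 3242 to 9427 in wild type, immune markers (8 genes) from 270 to 527 and 87.1 to 424, endothelial and pericyte markers (6 genes, Emcn at 0 in every library) from 48.2 to 111 and 27.8 to 97.5, and muscle markers (5 genes) from 19.0 to 21.5 and 14.3 to 45.4. Melanocyte markers (6 genes) ran from 379 to 735 in knockout and 572 to 617 in wild type, and sebocyte markers (6 genes) from 18687 to 21037 and 16559 to 20518. The groups overlapped for each of these lists.

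Myc was the most abundant member, and the order below it was close. On the scale of normalized counts per kb of exon, which allows genes of different length to be compared, Myc averaged 1367 ± 434 in knockout and 1812 ± 707 in wild type (SD, n = 3 each). It stood above each other member in all 6 libraries. Mycn came next, at 401 ± 173 in knockout and 603 ± 173 in wild type (SD, n = 3 each), and lay above Mlx in 5 of 6 libraries. In knockout libraries 2 and 3 Mycn lay below Max, at 356 and 255 per kb against 361 for Max in both. The hubs Mlx and Max had almost the same level per kb, with medians over the 6 libraries of 353 and 351 and overlapping ranges. Max lay above Mnt in all 6 libraries, with no overlap of the ranges. Mnt, Mxi1, Mxd3, Mxd1 and Mxd4 followed, with medians of 268, 223, 200, 162 and 138 per kb, and the range of each overlapped that of the next. With the length of the longest transcript in place of all exons, Myc stayed first, Max moved to rank 2 and Mycn to rank 3. Max then had a median of 650 and Mlx one of 359, with no overlap of their ranges, so their likeness depends on the length used.

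**Figure D1:**
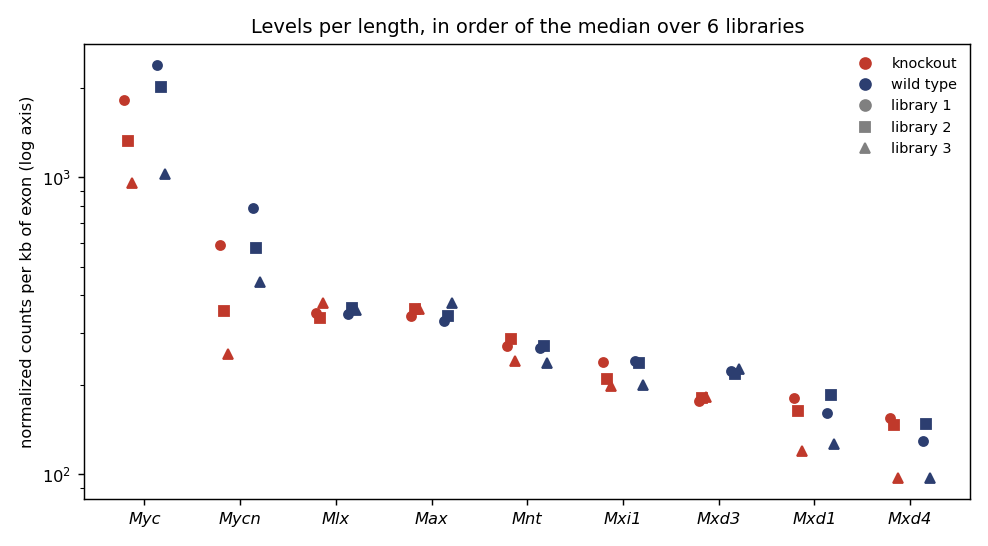
Normalized counts per kb of exon (log axis) for the 9 members, ordered by the median over 6 libraries, with knockout libraries in red left of wild-type libraries in blue and a symbol for each library number. Myc lay between 956 and 2393 per kb, above every other member in each library, while Mlx and Max overlapped, with medians of 353 and 351.

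No member passed the main test of knockout against wild type, and Mycn, Myc and Mxd3 had the largest differences, all with knockout lower. Log2 differences are knockout minus wild type on the log2(normalized count + 1) scale, tested with limma over all 13671 genes with Benjamini-Hochberg adjustment. Limma called 0 of the 9 members and 0% of all genes, with 1 member (Mxd3) and 5.55% of all genes at an unadjusted p under 0.05. The test of edgeR on the recovered reads also called 0 members and 0% of all genes, with Mxd3 and 5.57% of all genes at an unadjusted p under 0.05. DESeq2 called 0 members and 0.505% of all genes without a further term, 1 member (Mycn) and 1.24% with the replicate number as a block, and 0 members and 2.22% with the label code as a term. In the DM22 libraries alone, limma called 0 members and 0.0148% of genes, and DESeq2 0 members and 1.97%. Of the 9 members, 6 had a difference below 0, against 51.0% of all genes, and the median was -0.03, against -0.003 over all genes. Myc, Mycn, Mxd3 and Mxi1 were lower in knockout in all 3 same-numbered pairs, as were 17.3% of all genes, and Mnt was higher in all 3, as were 15.3%. The labels do not state that the numbers pair libraries, and pairs 1 and 2 rest on the numbers alone, as does the block.

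**Figure D2:**
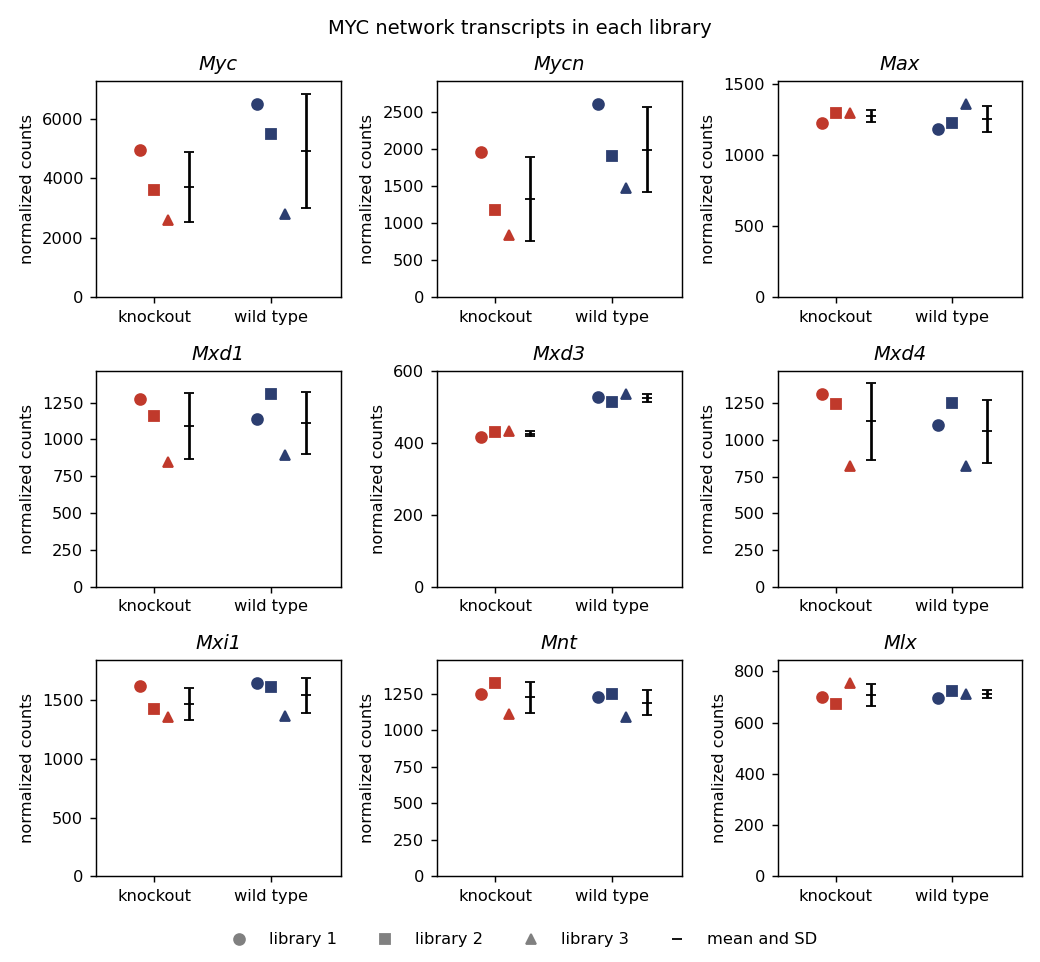
Normalized counts of each member in the 3 knockout (red) and 3 wild-type (blue) libraries, with mean and SD beside the points, and each vertical axis starting at 0. Mxd3 is the 1 member whose groups do not overlap, and the library 3 triangles are the lowest of their group for Myc, Mycn, Mxd1, Mxd4, Mxi1 and Mnt.

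The activator Mycn had the largest difference of the 9 members. Mycn (chromosome 12, 12936093 to 12941914, minus strand, GRCm38) had 1951, 1173 and 840 normalized counts in knockout libraries 1 to 3, against 2598, 1898 and 1468 in wild-type libraries 1 to 3. Each knockout library was below the wild-type library of its number, but knockout library 1 was above wild-type libraries 2 and 3, so the groups overlapped. The log2 difference was -0.64 ± 0.35 (SE), a fold of 0.643, with a 95% interval of -1.48 to 0.20 and a limma adjusted p of 0.933. In the pairs it was -0.41, -0.69 and -0.81. By DESeq2 the adjusted p was 0.953 without a term, 0.00222 with the replicate block and 0.163 with the label code as a term. The blocked call was lost without each of the 6 libraries in turn (DESeq2 adjusted p from 0.127 to 0.566), and with the label code a call appeared without knockout library 1 and without wild-type library 2 and in none of the other 4 such fits. Limma with the block gave an adjusted p of 0.25.

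Myc, which encodes the most studied activator of the network, overlapped between the genotypes and was lowest in library 3 of each. Myc (chromosome 15, 61985391 to 61990374, plus strand) had 4948, 3599 and 2598 normalized counts in knockout libraries 1 to 3, against 6503, 5484 and 2786 in wild-type libraries 1 to 3. The wild-type library 3 was below knockout libraries 1 and 2, so the groups overlapped. The log2 difference was -0.37 ± 0.37 (SE), with a 95% interval of -1.27 to 0.54 and a limma adjusted p of 0.993. The pair differences were -0.39, -0.61 and -0.10. The DESeq2 adjusted p of Myc was 1.0 with no term, 0.31 with the block and 0.40 with the label code. Myc is itself known as an immediate early gene, and the 19 immediate early and tissue dissociation genes of a list summed to 593810, 539782 and 151734 normalized counts in knockout libraries 1 to 3, against 783680, 891585 and 311788 in wild type. All 19 were below 0 (median log2 difference -0.64, by pair -0.21, -0.53 and -1.17), and the groups overlapped for each. Limma called 0 of them, and DESeq2 called 0 without a term. With the block DESeq2 called 8 lower, against 0.819% of all genes, and with the label code 9 lower, against 1.46%. Jun, Egr1 and Hspa8 kept the blocked call without each of the 6 libraries, and Dusp5 kept it in 4 of these 6 fits. The part of these genes in the Myc values was not tested.

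The ratio of Myc to Mycn did not separate the groups. In normalized counts it was 2.54, 3.07 and 3.09 in knockout libraries 1 to 3, against 2.502, 2.89 and 1.90 in wild-type libraries 1 to 3. Wild-type library 3, with the lowest ratio, was below the other 5. The mean was 2.90 ± 0.32 in knockout and 2.43 ± 0.50 in wild type (SD, n = 3 each), and Mycn made up 21.04% to 24.5% of the 2 transcripts per kb of exon in knockout and 22.2% to 30.3% in wild type. The log2 ratio was higher in knockout by 0.27 (two-sided exact permutation p = 0.2, where 3 against 3 libraries allow no p below 0.1), and higher in 3 of 3 pairs, by 0.02, 0.09 and 0.71. The difference was 0.10 when wild-type library 3 was left out, 0.41 when wild-type library 2 was, and 0.05 in the DM22 libraries alone.

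**Figure D3:**
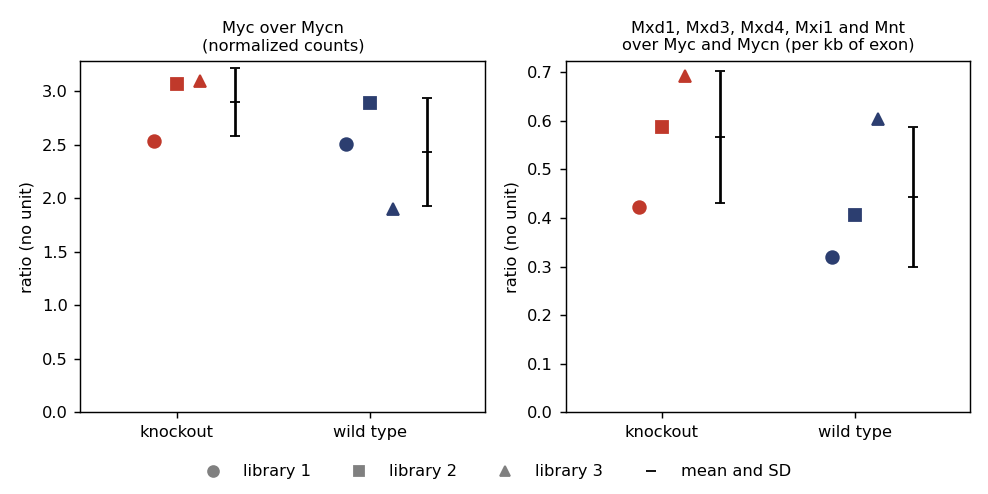
Left, the ratio of Myc to Mycn in normalized counts, and right, the ratio of the 5 antagonists to the 2 activators per kb of exon, in knockout (red) and wild-type (blue) libraries, with mean and SD (n = 3 each). In both panels the groups overlap, with wild-type library 3 at 1.90 on the left and knockout library 3 at 0.692 on the right.

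Max, the partner that MYC and the repressors share, was among the least variable members. Max (chromosome 12, 76937269 to 76962201, minus strand) had 1229, 1298 and 1299 normalized counts in knockout libraries 1 to 3, against 1182, 1225 and 1359 in wild-type libraries 1 to 3. The highest and the lowest value were both in wild type. The log2 difference was 0.02 ± 0.08 (SE), with a 95% interval of -0.17 to 0.22 (limma adjusted p = 0.999). The activators Myc and Mycn together stood at 7.07, 4.66 and 3.36 times the Max level per kb of exon in knockout libraries 1 to 3, against 9.69, 7.62 and 3.89 times in wild type. Each knockout value was below the wild-type value of its number, and the groups overlapped. The size of these ratios depends on the length used, since Max has 3598 bases of exon and a longest transcript of 1942 bases.

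Among the antagonists, Mxd3 was the 1 member with no overlap between the groups. It is known as the MXD gene expressed in proliferating cells, around S phase, where the others are tied more to differentiation or quiescence. Mxd3 (chromosome 13, 55325168 to 55329823, minus strand) had 417, 430 and 432 normalized counts in knockout libraries 1 to 3, against 527, 514 and 537 in wild-type libraries 1 to 3. Over all genes tested 11.0% had no overlap, 5.87% with knockout lower and 5.08% with knockout higher. The share among the members, 1 of 9, was close to that of all genes. The log2 difference was -0.30 ± 0.08 (SE), a fold of 0.811, with a 95% interval of -0.49 to -0.11. It did not pass after adjustment, with an adjusted p of 0.722 by limma, 0.753 by edgeR and 0.269 by DESeq2. With the block the DESeq2 adjusted p was 0.852, and with the label code 0.197. The pair differences were -0.34, -0.26 and -0.31, and in the 6 fits without 1 library limma gave -0.32 to -0.29. The SD between libraries was 1.87% of the mean in knockout and 2.19% in wild type, smaller than the 3.99% to 5.41% that counting 342 to 627 reads gives for a single library, so the spread within each group was below what counting alone gives. Mxd3 exons share 105 bases with Prelid1 on the opposite strand, and the kit does not mark strand. Prelid1 differed by -0.12 ± 0.12 (SE), with overlapping groups.

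Mxd1 and Mxd4, antagonists known from differentiating cells, overlapped between the genotypes and were lowest in library 3 of each. Mxd1 (chromosome 6, 86647042 to 86669161, minus strand) had 1275, 1157 and 846 normalized counts in knockout libraries 1 to 3, against 1142, 1310 and 892 in wild type. Mxd4 (chromosome 5, 34173883 to 34187720, minus strand) had 1313, 1241 and 824 in knockout, against 1098, 1250 and 823 in wild type. The log2 differences were -0.03 ± 0.20 (SE) for Mxd1 and 0.08 ± 0.23 (SE) for Mxd4, both with a limma adjusted p of 0.999. Both changed sign when single libraries were left out, with Mxd1 at 0.14 without knockout library 3 and Mxd4 at -0.09 without wild-type library 3. Suprabasal keratinocyte markers (5 genes) summed to 15618, 21162 and 89262 normalized counts in knockout libraries 1 to 3, against 18558, 24368 and 33929 in wild type. Knockout library 3, with the highest suprabasal sum, had the lowest Mxd1 value, and the part of these markers in the Mxd1 values was not tested. An antisense transcript, Gm42846, shares 514 bases of Mxd4 exons and is not a row of the table.

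Mxi1 and Mnt overlapped between the groups. Mxi1 (chromosome 19, 53310518 to 53375810, plus strand), an MXD family repressor, had 1624, 1427 and 1357 normalized counts in knockout and 1643, 1614 and 1368 in wild type, libraries 1 to 3. Its log2 difference was -0.07 ± 0.11 (SE), with a 95% interval of -0.33 to 0.19 (limma adjusted p = 0.996). Mnt (chromosome 11, 74830920 to 74845725, plus strand), the broadly expressed MAX partner that opposes MYC in proliferating cells, had 1250, 1321 and 1113 normalized counts in knockout and 1228, 1248 and 1094 in wild type. Its log2 difference was 0.04 ± 0.10 (SE), with a 95% interval of -0.19 to 0.28 (limma adjusted p = 0.999). Without wild-type library 3 its sign was reversed (-0.015).

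**Figure D4:**
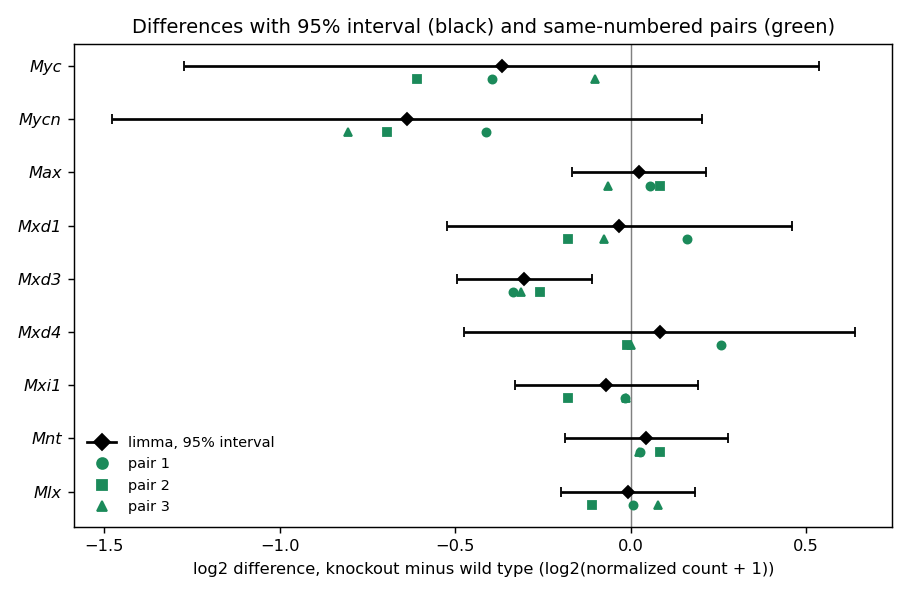
Log2 difference, knockout minus wild type, of each member with its 95% interval from limma (black), and below it the differences of the 3 same-numbered pairs (green). The interval excludes 0 for Mxd3 alone, before adjustment over genes, while Myc and Mycn have the widest intervals.

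Summed over Mxd1, Mxd3, Mxd4, Mxi1 and Mnt, the antagonists stood at 1020, 986 and 839 normalized counts per kb of exon in knockout libraries 1 to 3, against 1020, 1056 and 887 in wild type. Myc and Mycn together stood at 2413, 1681 and 1211 per kb in knockout, against 3182, 2594 and 1471 in wild type. The ratio of antagonists to activators was therefore 0.422, 0.587 and 0.692 in knockout, against 0.320, 0.407 and 0.603 in wild type. It was higher in knockout within each number, while the groups overlapped. The log2 ratio differed by 0.38 (two-sided exact permutation p = 0.3, smallest possible 0.1), and by 0.40, 0.53 and 0.20 in the pairs. Without single libraries it moved to 0.57 (knockout library 1), 0.22 (knockout library 3), 0.17 (wild-type library 1) and 0.62 (wild-type library 3).

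Mlx, the hub of the parallel branch, overlapped between the groups. Mlx (chromosome 11, 101087277 to 101092207, plus strand) had 698, 671 and 752 normalized counts in knockout libraries 1 to 3, against 694, 725 and 713 in wild type. Both extremes were in knockout. The log2 difference was -0.008 ± 0.08 (SE), with a 95% interval of -0.20 to 0.18 (limma adjusted p = 1.0). That sign turned under quantile normalization (0.012). Mlx exons share 385 bases, 19.3% of their length, with Psmc3ip on the opposite strand. Psmc3ip had 250 ± 9.27 normalized counts in knockout and 297 ± 12.5 in wild type (SD, n = 3 each) and did not pass limma (adjusted p = 0.894). Reads from the shared bases cannot be told apart.

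Between the label codes, 3 members passed limma. In a limma fit that held genotype, DM24 minus DM22, Myc differed by -0.90 ± 0.17 (SE, adjusted p = 0.0416), Mxd4 by -0.57 ± 0.08 (SE, adjusted p = 0.0241) and Mxd1 by -0.49 ± 0.09 (SE, adjusted p = 0.0353). These 3 of 9 members passed, all lower in DM24, against 6.75% of all genes in either direction and 4.07% lower in DM24. Mycn differed by -0.72 ± 0.24 (SE) and did not pass (adjusted p = 0.118). Mxd3 differed by 0.04 ± 0.08 (SE, adjusted p = 0.785). Depth and sex moved with the code, and their part in these differences was not tested.

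The genes around the network were read from lists, by their counts and medians beside those of all genes (median -0.003, 51.0% below 0). In the list of 13 MYC cofactors, 7 were below 0 with a median of -0.003. DESeq2 called 0.329% of all genes lower without a term, with the block 0.819% lower and 0.417% higher, and with the label code 1.46% lower and 0.761% higher. Pim1, a kinase that cooperates with MYC, fell by DESeq2, with 1094 ± 137 normalized counts in knockout and 1579 ± 127 in wild type (SD, n = 3 each) and a log2 difference by limma of -0.53 ± 0.12 (SE). Its adjusted p was 0.0333 by DESeq2, 0.0101 by DESeq2 with the block, 4.1e-05 by DESeq2 with the label code and 0.667 by limma. Without a term that call was lost when knockout library 2, wild-type library 1 or wild-type library 2 was left out, with DESeq2 adjusted p up to 0.504, and with the block it was lost without each of the 6. With the label code it was called in 5 of 6 such fits, all but the one without knockout library 2. Of 9 corepressor genes, 4 were below 0 (median 0.003) and none passed limma or DESeq2. The SIN3 complex subunit Sap30 did not overlap between the groups, at 488 ± 45.4 in knockout and 626 ± 20.5 in wild type (SD, n = 3 each), with a log2 difference of -0.36 (DESeq2 adjusted p = 0.253). Rbbp4 (log2 difference -0.13) did not overlap either. These were 2 of the 9 with no overlap and knockout lower, against 5.87% of all genes. Of 14 genes for MYC protein turnover, 7 were below 0 (median 0.0002) and none passed limma or DESeq2. The ubiquitin ligase Fbxo32 differed by -0.50 ± 0.28 (SE) on the log2 scale, and the MYCN-stabilising kinase Aurka by -0.24 ± 0.17 (SE). Of the 6 tested relatives outside the 9 members, which include Mga and the MondoA gene Mlxip, 2 were below 0 (median 0.04), and of the 5 tested MondoA and ChREBP targets 3 were (median -0.03). None of these passed limma or DESeq2, and Txnip, the best known of the targets, differed by -0.24 ± 0.43 (SE).

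Known MYC targets were read by class. Of 30 ribosome biogenesis genes, which MYC is best known to activate, 13 were below 0 with a median of 0.02, and none passed limma or DESeq2 in any of the 3 designs. Rrp12 (0.24 ± 0.16, SE) and Npm1 (-0.21 ± 0.16, SE) had the largest log2 differences in either direction. Polyamine synthesis genes had a median of 0.03 with 1 of 6 below 0. All 16 genes of nucleotide and one-carbon metabolism were below 0, at a median of -0.14 (by pair -0.23, -0.10 and -0.12). Limma called 0 of them and DESeq2 called 0 without a term or with the block and 2 lower with the label code, Mthfd1 and Paics, called in 0 and 1 of 6 fits without a library. Mthfd1, an enzyme of folate metabolism, had 2714 ± 253 normalized counts in knockout and 3398 ± 242 in wild type, and the purine enzyme Paics 3958 ± 215 and 4939 ± 405 (SD, n = 3 each). All 10 cell cycle targets were below 0 (median -0.14), none past limma or DESeq2. E2f1 stood at 581 ± 46.9 in knockout and 758 ± 80.1 in wild type (SD, n = 3 each). It was the 1 of these 10 with no overlap, knockout lower, against 5.87% of all genes. Translation and chaperonin genes had 10 of 13 below 0 (median -0.08), with the mitochondrial chaperonin gene Hspe1 at -0.62 ± 0.41 (SE), lower by DESeq2 with the block (adjusted p = 0.024, called in 2 of 6 fits without a library) and not without it (0.851). With the label code DESeq2 called Hspe1 and its partner Hspd1 lower. Among glycolysis and transport genes 6 of 10 were below 0 (median -0.02). The glucose transporter Slc2a1 rose by DESeq2 with the block (adjusted p = 0.0495) and not without it (0.124), with 7812 ± 576 normalized counts in knockout and 6216 ± 394 in wild type (SD, n = 3 each), and the call was lost without each of the 6 libraries. With the label code the adjusted p of Slc2a1 by DESeq2 was 0.00587, and it was called in 1 of 6 such fits.

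Of 10 genes that MYC is known to repress, 7 were below 0, with a median of -0.21. DESeq2 called 0 without a term and 2 lower with the block, Klf6 (log2 difference -0.79, adjusted p = 1.2e-10) and the stress gene Gadd45a (-0.57, adjusted p = 0.0448). Klf6, which is also induced early by stress, kept its blocked call without each of the 6 libraries, Gadd45a lost its call without each of the 6 libraries, and neither passed limma (adjusted p = 0.987 and 0.722). With the label code DESeq2 called 3 lower, Klf6, Gadd45a and Gadd45b, and 1 higher, Ndrg2. Gadd45b, Ndrg2 and Hspd1 were named after their values were seen. Klf6 was then called in 6 and Gadd45a in 1 of the 6 fits without a library.

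**Figure D5:**
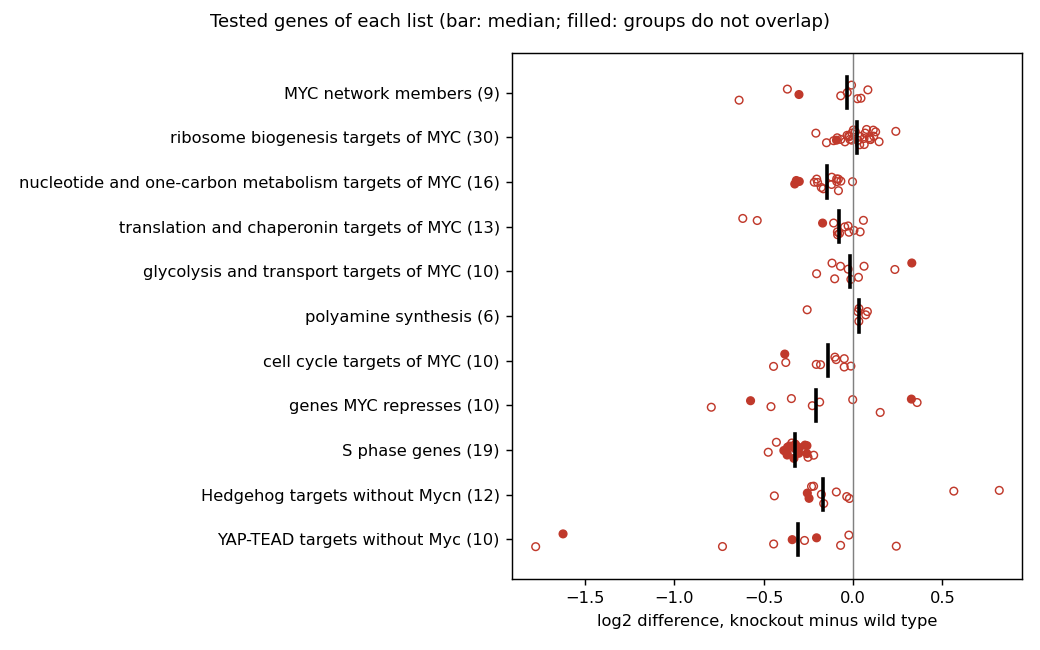
Log2 difference, knockout minus wild type, of every tested gene of the network, of its target lists and of 3 neighbouring pathways, with the number of genes in brackets, the median as a bar and filled points where the groups do not overlap. The ribosome biogenesis genes centre on 0.02 and the S phase genes on -0.33.

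Mxd3 was set beside S phase genes, with which its expression is known to coincide. All 19 S phase genes of the list were below 0, at a median of -0.33 (by pair -0.33, -0.37 and -0.21), and 14 of 19 did not overlap with knockout lower, against 5.87% of all genes. The Mxd3 difference was -0.30. Limma called 0 of the 19, and DESeq2 called 4 lower without a term (Mcm3, Mcm6, Pcna and Cdt1, the first named after its value was seen) and 2 with the block, Mcm6 and the ribonucleotide reductase subunit Rrm2. Mcm6, a subunit of the replicative helicase, had 3605 ± 146 normalized counts in knockout and 4718 ± 280 in wild type (SD, n = 3 each), with DESeq2 adjusted p of 0.00276 without a term and 0.0126 with the block. Without a term its call was lost without knockout library 2 and, separately, wild-type library 1, and Cdt1 and Pcna each kept theirs in 2 of 6 such fits. Both blocked calls were lost without each of the 6 libraries. With the label code DESeq2 called 10 of the 19 lower, and without single libraries Mcm6 kept that call in 5 of 6 fits, Rrm2 in 1, and Cdt1 and Pcna in 0. Mycn was set beside a list of Hedgehog targets that also holds the pathway components Smo and Sufu. Of these 12 genes without Mycn, 10 were below 0 with a median of -0.17, and Smo (-0.09) and Sufu (-0.02) were among the 10. DESeq2 called 0 without a term or with the block, and with the label code it called 2 lower, among them Ptch1 (adjusted p = 0.00578). Gli1 had a log2 difference of -0.04 ± 0.15 (SE) and Ptch1 one of -0.44 ± 0.23 (SE). The 2 genes above 0 had the largest differences of the list, Hhip at 0.82 ± 0.51 (SE) and Sfrp1 at 0.56 ± 0.21 (SE). Myc was set beside YAP-TEAD targets. Of 10 tested without Myc, 9 were below 0 with a median of -0.31, and DESeq2 called 2 lower without a term, Cyr61 and Amotl2, at log2 differences of -1.78 and -1.62, where Myc had -0.37. Without a term the Cyr61 call remained in 1 of 6 fits without a library and the Amotl2 call in 3. With the block DESeq2 called Cyr61, in each of these 6 fits too, and Axl, in 2 of the 6. With the label code it called the same 2 genes, Cyr61 in 6 and Axl in 1 of the 6 fits.

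The genes whose levels over the 6 libraries were most like those of Myc and Mycn were sought among 10992 named genes with a mean of at least 50, by the root mean square difference of log2 values centred on the mean of each gene. For Myc they were Fam180a (0.071), the thiamine transporter gene Slc19a2 (0.078) and Smad9 (0.11), against 0.50 for a flat profile. For Mycn they were Atp6v1b1, a proton pump subunit (0.10), the Wnt receptor gene Fzd5 (0.17) and Serpinb6b (0.17), against 0.53 for a flat profile. Slc19a2 had 1240, 936 and 746 normalized counts in knockout libraries 1 to 3, against 1675, 1586 and 745 in wild type. Atp6v1b1 had 4002, 2886 and 1879 in knockout, against 5572, 4625 and 3090 in wild type.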

How the data were processed

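Total RNA was sequenced in 6 libraries, 3 knockout and 3 wild type, made with the TruSeq RNA v2 kit per the labels' protocols. The authors deposited normalized counts, a signal equal to reads per gene over 1 size factor for each library. STAR 2.5, DESeq2 1.18.1 and build mm10 (GRCm38) are named in the submitters' processing notes, with the counting tool and annotation not given in the sources used here. Of all values, 100% were multiples of a step fixed for the library (tolerance 0.001 reads), which gave back reads per gene. A floor of 3 reads was 2.47 to 3.90 normalized counts and covers counting error only. Limma 3.58.1 (R 4.3.3; trend, robust, two-sided, Benjamini-Hochberg at 0.05) was run on log2(normalized count + 1) for genes with a mean of at least 10, and edgeR 4.0.16 and DESeq2 1.42.0 on the recovered reads. The fits were tested on simulated data with 200 changed genes. False calls ran from 1.6% of calls (limma with the block) to 8.5% (DESeq2 without a term). The simulation gave every gene the same dispersion and no difference between label codes, so it does not show how the fits perform on these libraries. Ratios were tested with exact permutation tests (scipy 1.17.1). The numbers were taken as pairs, which the labels do not state. Deviations from group means correlated by 0.333, 0.327 and 0.694 between same-numbered libraries, and both libraries of number 3 carry the DM24 code. Knockout library 1 and wild-type library 2 correlated by 0.505, so pairs 1 and 2 rest on the label numbers alone. Exon lengths and coordinates (1-based) are from GENCODE M21 (GRCm38) and promoters from RefSeq (GRCm38.p6). Of 261 list entries, 260 were in the table, 6 through a synonym. Named were all 9 members and the context genes Yap1, Gli1, Ptch1 and Krt5. From each list, up to 4 genes past limma or DESeq2 (with or without the block) were chosen, otherwise the 2 with the largest difference. The members and lists were chosen with earlier results of these data known. Alternatives covered the test, block, label code, scaling, pseudocount, filter, gene length and each library left out.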

Additional observations from a re-analysis of the deposited data

Results flagged for a closer look

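Max differed in opposite directions in the DM22 and DM24 libraries. Both DM22 knockout libraries (1229 and 1298 normalized counts) were above both DM22 wild-type libraries (1182 and 1225), and the DM24 knockout library (1299) was below the DM24 wild-type library (1359). The log2 difference was -0.066 in DM24 and 0.070 on average in DM22. This difference between the codes was not tested, since DM24 holds 1 library per genotype, and it is the 1 result noted among the 9 members and 2 ratios examined. The SE of the Max difference over all libraries was 0.08. Counting alone gives an error of 2.52% to 3.12% for Max in a single library, more than the gap between 1229 and 1225. The share of all genes with such a reversal was not counted. Mlx also had opposite signs, at 0.078 in DM24 and -0.052 on average in DM22, where its genotypes overlapped.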

How the results depend on the processing

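The numbers of calls depended on the test. Against 0 genes for limma, DESeq2 called 69 without a term, 169 with the replicate block, 303 with the code series and 267 in the DM22 libraries alone, where limma called 2. Without single libraries the counts ran from 0 to 496 over limma and DESeq2. For DESeq2 without a term they were 53, 26 and 230 without knockout library 1, 2 or 3 and 23, 223 and 234 without wild-type library 1, 2 or 3. Limma then called 1 gene, Yap1, without knockout library 3. Limma and edgeR called 0 genes with the replicate block and with the code series, so the block moved the DESeq2 count alone. For the 9 members the count was 0 except for 1 (Mycn) by DESeq2 with the replicate block, and from 0 to 1 without single libraries. The block changed no other member's call. The Myc to Mycn log2 ratio (0.27, the same mean over pairs with the replicate block) stayed above 0 in each setting, from 0.10 to 0.41 without single libraries. The antagonist to activator log2 ratio (0.38) did so too, from 0.17 to 0.62 without single libraries, with 0.34 without Mnt. Signs of small limma differences turned without single libraries, with ranges of -0.017 to 0.083 for Max, -0.18 to 0.14 for Mxd1, -0.086 to 0.29 for Mxd4, -0.015 to 0.11 for Mnt and -0.054 to 0.029 for Mlx, and for Mlx under quantile normalization (0.012). Signs of Myc, Mycn, Mxd3 and Mxi1 held in each setting tried. The cause of these changes was not tested. Fits on the DM22 libraries alone, edgeR with a term and DESeq2 without single libraries were added after seeing the data.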

Other observations

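Mxd3 was added to the search for like profiles after its values had been seen. Among 10992 named genes its 3 nearest, by the root mean square difference of centred log2 values over the 6 libraries, were Scoc (0.041), Rfc4 (0.042) and Txnl4b (0.043), against 0.15 for a flat profile. Rfc4, a subunit of the clamp loader for the replication fork, had 459, 456 and 478 normalized counts in knockout libraries 1 to 3, against 609, 588 and 614 in wild type. Scoc had 214, 232 and 221 in knockout, against 261, 258 and 281 in wild type.

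Mycs, an intronless relative of Myc, was listed at 0 in every library. Amd1, which encodes a polyamine synthesis enzyme that cells in general use, was listed at 0 in every library too, so a 0 in this table sets no upper limit on expression.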
